A study of Mus musculus with 354 samples.

Results

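The 37 genes of the mouse mitochondrial genome were examined in single cells sorted from the cochlea of P3 mice. Members were all genes whose name starts with mt- in the count tables, 37 of 55367 genes. They comprised 13 protein-coding genes, 2 ribosomal RNA (rRNA) genes and 22 transfer RNA (tRNA) genes. The libraries came from 354 GFP+ cells sorted as cochlear supporting cells (SCs), 177 per genotype, on 3 plates of 59 cells each. CA-ERBB2 cells came from pups that carried Fgfr3-iCre together with ROSA-floxed-rtTA/GFP and also TetON-CAERBB2, a transgene that encodes a constitutively active ERBB2 receptor. Control cells came from littermates with the first 2 of these and without the transgene. Tamoxifen was given at 75 mg/kg at P0 and P1 and doxycycline at 100 mg/kg at P2. The *Fgfr3* promoter drives the Cre, so GFP marks cells in which that promoter was active and not a single type. Pups were pooled for a plate. Samples carry a plate number in their names, and plates served as replicates because the cells of a plate share 1 sort. Whether the plates of a genotype came from different litters was not given in the sources used here, so p-values measure the spread between plates.

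The mitochondrial genome is transcribed from both strands as long precursors, and most tRNAs lie between the longer genes, where their excision releases the rRNAs and mRNAs. Its 13 proteins are subunits of the respiratory chain and of ATP synthase: the *mt-Nd* genes encode subunits of complex I, *mt-Cytb* a subunit of complex III, the *mt-Co* genes subunits of complex IV, and *mt-Atp6* and *mt-Atp8* subunits of complex V. All other subunits are made from nuclear genes. The share of mitochondrial counts is often used as a measure of the state of a sorted cell. Fragments of mitochondrial DNA have also been inserted into nuclear chromosomes, and a read that matches both places equally well is not placed uniquely.

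Total counts per cell ranged from 1443 to 5178221 with a median of 2866362, and a total under 100000 was found for 2 CA-ERBB2 and 33 Control cells. No pair of cells had identical counts. *Erbb2*, the mouse gene of the receptor, was at 140.3, 35.9 and 82.1 counts per 1000000 (CPM) on the CA-ERBB2 plates and at 25.8, 3.56 and 12 CPM on the Control plates. Whether reads of the transgene map to it was not tested. All 11 SC markers were detected, with a summed level from 1838 to 4317 CPM per plate. Markers of other cell types were also seen. The 6 mesenchyme markers summed to 2753 to 8541 CPM, and the 5 blood and immune markers to 157 to 432 CPM in CA-ERBB2 and 3058 to 6263 CPM in Control. Most of the Control sums was hemoglobin, with *Hbb-bs* at 4978, 1157 and 3474 CPM and *Hba-a1* at 1097, 1730 and 1304 CPM. *Ptprc* and *Cd68* were also higher on every Control plate. *Csf1r* was not, at 14.9, 91.6 and 30.2 CPM in CA-ERBB2 and 69.3, 79.2 and 70.4 CPM in Control. The 7 hair cell markers summed to 97.8 to 154 CPM in CA-ERBB2 and 38.9 to 1067 CPM in Control, with *Insm1*, *Pou4f3*, *Atoh1* and *Gfi1* at 0 on CA-ERBB2 plate 3. The 4 glial and neuronal markers summed to 80.3 to 709 CPM. Their part in the results was not tested.

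Of the 37 members, 33 had at least 1 count. The protein-coding genes fell into separate ranges. A set of 7 genes, *mt-Nd1*, *mt-Nd2*, *mt-Co1*, *mt-Nd4*, *mt-Nd5*, *mt-Nd6* and *mt-Cytb*, each had 1005877 counts or more over all cells. The other 6, *mt-Co2*, *mt-Atp8*, *mt-Atp6*, *mt-Co3*, *mt-Nd3* and *mt-Nd4l*, each had 3673 counts or fewer. Those 6 make up 26.3% of the protein-coding length and held 0.0379% of the protein-coding counts, 9662 against 25464684. They are neighbors: all 6 lie between *mt-Co1* and *mt-Nd4*.

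This stretch has an annotated copy in the nuclear genome. In the Gencode M21 annotation of GRCm38, a run of unprocessed pseudogenes lies on the minus strand of chromosome 1 at chr1:24611535-24616197, in the same gene order. *Gm28661* matched *mt-Co2* at 681 of 681 aligned bases, *Gm10925* matched *mt-Atp6* at 678 of 678, *Gm28437* matched *mt-Co3* at 783 of 783, *Gm28438* matched *mt-Nd3* at 342 of 342, and *Gm10222* matched *mt-Nd4l* at 294 of 294. The copy also takes in the start of *mt-Nd4*, where *Gm28439* matched bases 1 to 876 without a difference, and the end of *mt-Co1*, where *Gm29216* matched bases 1063 to 1545 at 482 of 483. *mt-Atp8* falls between copied genes, and its counterpart between *Gm10925* and *Gm28661* is not annotated as a transcript, so its copy was not examined.

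The sequences below show how close the copies are. The first pair gives bases 1054 to 1143 of *mt-Co1*, at chrM:6381-6470 on the plus strand, and the first 90 bases of *Gm29216*, at chr1:24616108-24616197 on the minus strand, where the copy begins. The second pair gives the first 90 bases of *mt-Nd3*, at chrM:9459-9548 on the plus strand, and of *Gm28438*, at chr1:24613030-24613119 on the minus strand. Capitals mark the bases that differ within a pair. All are Gencode M21 transcript sequences, written 5′ to 3′.
mt-Co1: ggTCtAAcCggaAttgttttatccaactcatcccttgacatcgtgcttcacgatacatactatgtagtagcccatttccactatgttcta
Gm29216: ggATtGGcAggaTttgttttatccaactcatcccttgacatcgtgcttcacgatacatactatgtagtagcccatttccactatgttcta
mt-Nd3: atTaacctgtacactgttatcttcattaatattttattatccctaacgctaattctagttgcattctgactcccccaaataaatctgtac
Gm28438: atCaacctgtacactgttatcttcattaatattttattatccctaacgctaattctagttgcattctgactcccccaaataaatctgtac
The first pair differs at 6 bases, all near the edge of the copy. Counted from the first base of *mt-Co1*, these were T1056A, C1057T, A1059G, A1060G, C1062A and A1066T. The second pair differs at 1 base, T3C.

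Windows of 100 bases were compared as a measure of reads. Of the windows of *mt-Co2*, 99.49% were found exactly in another annotated transcript, as were 99.48% of those of *mt-Atp6*, 99.85% of *mt-Co3*, 97.59% of *mt-Nd3* and 98.48% of *mt-Nd4l*. For *mt-Nd4* the share was 60.75% and for *mt-Co1* 30.84%. It was 3.19% for *mt-Nd2* and 0 for *mt-Nd1*, *mt-Nd5*, *mt-Nd6*, *mt-Cytb* and both rRNAs, as well as for *mt-Atp8*. Only annotated transcripts could be searched. The authors counted with settings that keep uniquely placed reads that fall on 1 gene, and *mt-Atp8* shares 43 bases with *mt-Atp6*. How much of the low counts comes from reads left out in this way was not tested.

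The pseudogenes themselves were counted, at low levels. *Gm28437*, the copy of *mt-Co3*, had 24140 counts in 285 cells, against 3673 counts in 77 cells for *mt-Co3* itself. *Gm28438* had 12250 counts in 233 cells against 2471 in 103 cells for *mt-Nd3*. The 7 pseudogenes of the copy summed to 47394 counts. Levels of the 6 genes of the stretch are therefore given as values of these tables, not as levels of the transcripts.

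Per length, the well-counted genes spread over about an order of magnitude. *mt-Rnr2*, the 16S rRNA, was highest at 11735 ± 3674 CPM per kb (SD, n = 6 plates), followed by *mt-Cytb* at 8804 ± 2745. Next came *mt-Rnr1*, the 12S rRNA, at 5691 ± 3549 and *mt-Nd1* at 5114 ± 1756 CPM per kb, which were each above the other on 3 of 6 plates. *mt-Nd4* followed at 3210.4 ± 644, *mt-Nd2* at 2876 ± 841, *mt-Co1* at 2573 ± 872 and *mt-Nd6* at 2214 ± 712 CPM per kb. Within plates, *mt-Nd4* was above *mt-Co1* and *mt-Nd6* on 6 of 6 plates and above *mt-Nd2* on 5, while *mt-Nd2* and *mt-Co1* were each above the other on 3. *mt-Nd5* was the lowest of the 7 at 1089 ± 203 CPM per kb. *mt-Nd6* is the only protein-coding gene on the light strand, and it shares 14 bases with *mt-Nd5* on the other strand. The counting was set to use strand. Whether the kit keeps strand is not given in the sources used here, so reads of the 2 strands may not be told apart. In the 6 genes of the stretch, the mean was between 0.004 CPM per kb for *mt-Nd4l* and 8.53 for *mt-Nd3*.

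**Figure D1:**
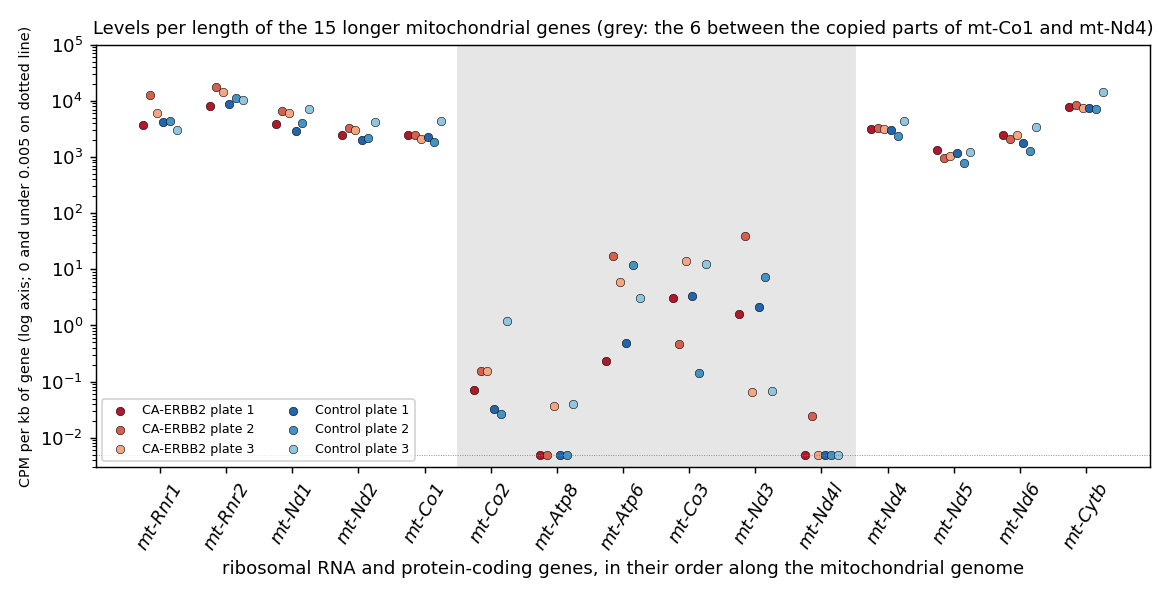
CPM per kb of gene length (vertical, log axis) for the 2 rRNA and 13 protein-coding genes in genome order (horizontal), with 1 point per plate. The 9 genes outside the grey band lie between 779 and 17674 CPM per kb on every plate, while the 6 genes of the copied stretch lie at or below 39.9.

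Dividing all counts of a gene by its number of 50-base windows with no match in another transcript changed the order. *mt-Nd4* then stood at 8813 ± 1768 CPM per 1000 such windows (SD, n = 6 plates), beside *mt-Cytb* at 9198 ± 2867, and *mt-Co1* stood at 5438 ± 1843 beside *mt-Nd1* at 5390.3 ± 1851. The result depends on the window length. In *mt-Co1*, 51.14% of windows had a match at 50 bases and 30.84% at 100 bases, and in *mt-Nd4* 62.23% and 60.75%. Levels by 100-base windows were not computed, so the place of *mt-Co1* beside *mt-Nd1* holds for 50 bases only. Windows say nothing of reads that span the edge of the copy, so these are approximate levels.

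The tRNA genes held few counts, and how well the cDNA primer captures tRNA was not tested. They ranged from 0 to 25172 counts over all cells, and *mt-Ty*, *mt-Tp* and *mt-Te* together held 75.9% of all tRNA counts. The sequences of these 3 genes, all on the light strand, are shown because they carry this class. They lie at chrM:5260-5326, chrM:15356-15422 and chrM:14071-14139, and are given from Gencode M21 on the minus strand.
mt-Ty: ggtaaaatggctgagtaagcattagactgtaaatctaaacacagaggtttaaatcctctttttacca
mt-Tp: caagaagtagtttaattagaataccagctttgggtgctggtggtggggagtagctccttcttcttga
mt-Te: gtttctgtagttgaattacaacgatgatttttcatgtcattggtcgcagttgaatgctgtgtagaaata
*mt-Ty*, the tRNA for tyrosine, was at 30.4, 27.6 and 21.9 CPM on the CA-ERBB2 plates and at 27.4, 23.6 and 41.5 CPM on the Control plates. *mt-Tp*, the tRNA for proline, was at 26.1, 43.4 and 26.3 CPM in CA-ERBB2 and at 7.99, 11.5 and 26.4 CPM in Control. *mt-Te*, for glutamate, was at 14.7, 12 and 7.13 CPM in CA-ERBB2 and at 10.2, 6.42 and 23.1 CPM in Control. The genotypes overlapped for all 3. In *mt-Tp* a single cell gave 68.5% of the counts of CA-ERBB2 plate 1 and 49.95% of those of Control plate 3.

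Next came *mt-Tq*, *mt-Tt* and *mt-Ti*, with means of 5.75, 5.003 and 3.61 CPM over the 6 plates. *mt-Tt* was the 1 of 25 members in the test across all genes whose plates did not overlap on plain CPM, against 7.89% of all genes tested. It ranged from 5.95 to 7.54 CPM in CA-ERBB2 and from 1.65 to 5.61 CPM in Control, and it overlapped on the scale of the test across all genes. The other 16 had means of 1.67 CPM or less. The 8 light-strand tRNA genes held 85.4% of the tRNA counts, and the 14 heavy-strand genes 14.6%. Reads of the 2 strands may not be told apart, and only reads that fall on 1 gene were counted. The split is therefore given for counts and not as a difference in tRNA level. *mt-Td*, *mt-Tk*, *mt-Tg* and *mt-Th* had no count in 354 cells. With cells taken as independent and a limit of 3 cells, this allows up to 0.847% of cells with a count. Cells of a plate are not independent, and 35 cells had under 100000 counts, so this limit is approximate. *mt-Td*, *mt-Tk* and *mt-Tg* lie in the copied stretch, as do *mt-Ts1* with 80 counts and *mt-Tr* with 8. The 17 tRNA genes outside the stretch had 74298 counts. These genes are from 59 to 75 bases long.

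The first comparison asked whether the share of mitochondrial counts differed between the genotypes. It was 4.34%, 7.07% and 5.71% of the summed counts of the CA-ERBB2 plates and 4.24%, 4.43% and 6.36% of those of the Control plates. The ranges overlapped, and the means were 5.71% ± 1.36 and 5.01% ± 1.18 (SD, n = 3 plates each). The two-sided exact permutation test gave p = 0.6, where the smallest p possible is 0.1. Protein-coding genes took 2.71%, 3.05% and 2.83% in CA-ERBB2 and 2.42%, 2.25% and 4.43% in Control (exact permutation p = 1). The CA-ERBB2 values lay inside the range of Control. Without Control plate 3, the sign of this difference turned, from -0.17 to 0.529 percentage points.

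rRNA genes took 1.62%, 4.00% and 2.87% in CA-ERBB2 and 1.81%, 2.17% and 1.92% in Control. CA-ERBB2 plates 2 and 3 were above every Control plate and plate 1 was below. The difference was 0.863 percentage points (two-sided exact permutation p = 0.4, smallest possible 0.1). As a median over cells it was 0.345 percentage points (exact permutation p = 0.2). Transfer RNA genes took 0.00898%, 0.0115% and 0.00807% in CA-ERBB2 and 0.0057%, 0.00562% and 0.0115% in Control, which also overlapped (exact permutation p = 0.6). As a share of mitochondrial counts, protein-coding genes made up 62.5%, 43.2% and 49.5% in CA-ERBB2 and 57.1%, 50.8% and 69.7% in Control. The ratio of rRNA to protein-coding counts thus ran from 0.433 on Control plate 3 to 1.31 on CA-ERBB2 plate 2. On CA-ERBB2 plates 2 and 3, *Spp1* alone took 90994 and 93815 CPM, against 9443 on plate 1 and 1089 CPM or less in Control. Its part in the shares of the other genes was not tested.

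**Figure D2:**
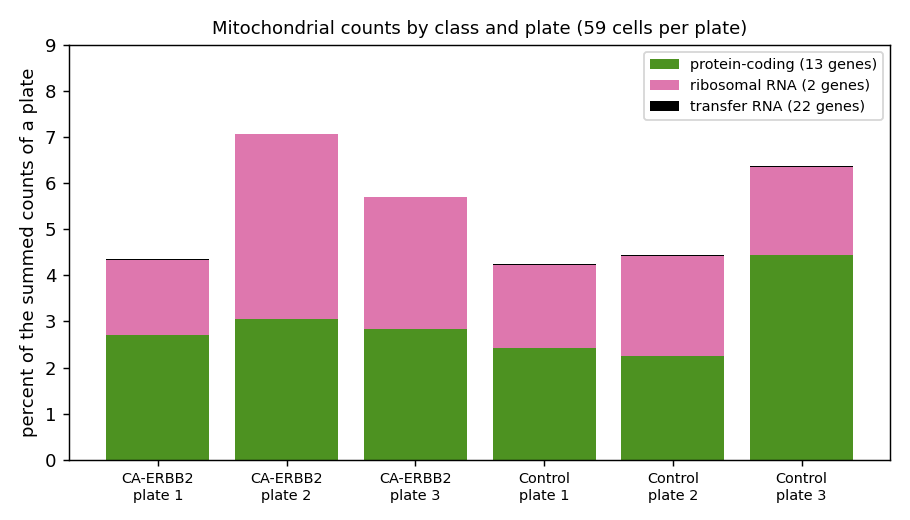
Percent of the summed counts of each plate (vertical) on the protein-coding, rRNA and tRNA genes, stacked, for the 3 CA-ERBB2 and 3 Control plates. Totals run from 4.24% to 7.07%, the tRNA part is too thin to see, and the rRNA part is tallest on CA-ERBB2 plate 2.

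Single cells weighed heavily on these sums. On CA-ERBB2 plate 2, 1 cell held 52.3% of the *mt-Rnr1* counts and 21.7% of the *mt-Rnr2* counts of the plate. In that cell 81.2% of 2223089 counts were mitochondrial. The 95% Wilson interval of 81.1% to 81.2% takes reads as independent, though amplified copies of 1 molecule are counted apart. Of the mitochondrial counts of that cell 96.2% were rRNA, and 719 genes were detected in it. Without it the rRNA share of the plate was 2.81% instead of 4.00%, and the ratio of *mt-Rnr2* to *mt-Rnr1* was 3.80 instead of 2.32. On the other plates that ratio was between 3.49 and 5.54. The 5 cells with the most mitochondrial counts held 20.7% to 47.3% of the mitochondrial counts of a plate and 7.56% to 15.9% of all its counts.

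Per cell, the median mitochondrial share was 3.64%, 3.52% and 4.03% on the CA-ERBB2 plates and 3.67%, 2.44% and 4.85% on the Control plates (two-sided exact permutation p = 1). The spread within plates differed more than the medians. The interquartile range ran from 2.80% to 4.15% on CA-ERBB2 plate 1 and from 3.05% to 4.75% on Control plate 1. On CA-ERBB2 plates 2 and 3 it ran from 1.77% to 6.87% and from 1.24% to 7.46%, and on Control plates 2 and 3 from 0.0396% to 5.29% and from 2.34% to 8.90%. Both plates numbered 1 were thus narrow, and both were also the richest in genes, with medians of 10198 and 8679 genes per cell against 1742 to 2954 on the others. A share of 20% or more was reached by 9 CA-ERBB2 and 10 Control cells. A share under 0.1% was found in 10 CA-ERBB2 and 22 Control cells, and plate 2 of Control held 18 of the latter. On that plate 23 cells had under 100000 counts, with a median of 6468 counts and a median share of 0.0253%, and its other 36 cells had a median share of 4.46%.

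**Figure D3:**
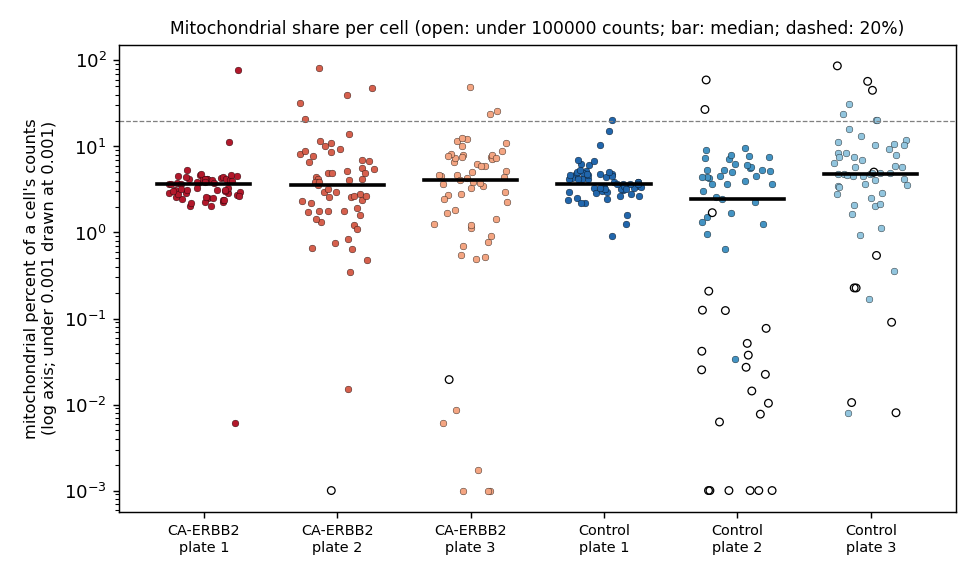
Mitochondrial percent of a cell's counts (vertical, log axis) for the 59 cells of each plate, where open points are cells under 100000 counts, bars are medians and the dashed line is at 20%. Medians lie between 2.44% and 4.85%, the plates numbered 1 are the narrowest, and most cells under 0.1% on Control plate 2 are open points.

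The highest shares came from shallow and from deep cells. On Control plate 3, the cell with the highest share had 6841 mitochondrial counts among 7909, or 86.5%, and 252 genes. Its 95% Wilson interval was 85.7% to 87.2%, with reads again taken as independent. On CA-ERBB2 plate 1, the highest had 76.8% of 1997350 counts and 1076 genes, and 38.3% of its mitochondrial counts were rRNA. Of the 19 cells at 20% or more, 14 had at least 100000 counts. Their median number of genes was 1076, against 4247 in the other 335. The median rRNA part of the mitochondrial counts was 40.6% in these cells and 41.6% in the others.

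The share was also read by the number of genes detected. In the 150 cells with over 6000 genes, the median share was 3.82% and the interquartile range was 3.02% to 4.73%. In the 84 cells with over 2000 and up to 6000 genes it was 3.95% (1.90% to 6.20%), and in the 74 cells with over 500 and up to 2000 genes 4.23% (1.80% to 9.12%). Only the 46 cells with up to 500 genes stood lower, at 0.0641% (0.00816% to 4.06%), and 25 of them were under 0.1% while 7 were at 20% or more. The lowest bin held cells of 4 plates, 37 of them Control, and their median total was 12143 counts. The bins pool plates, and most cells with over 6000 genes came from the plates numbered 1. In these cells the median was 3.64%, 6.05% and 3.94% on the CA-ERBB2 plates (55, 12 and 10 cells) and 3.67%, 5.11% and 4.86% on the Control plates (48, 13 and 12 cells). The interquartile range was 2.85% to 4.14% and 3.17% to 4.69% on the plates numbered 1, but 2.92% to 10.3% on CA-ERBB2 plate 2, about as wide as the pooled range of cells with over 500 and up to 2000 genes.

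The wells A12 to D12 stood apart. Of their 24 cells, 23 had 9838 to 19522 genes and the other had 3520, while the median of the other cells of a plate was between 1216 and 10095. What these wells held is not given in the sources used here. Without them the medians over 6000 genes were 3.29%, 3.56% and 3.94% on the CA-ERBB2 plates (51, 8 and 6 cells) and 3.59%, 4.84% and 6.10% on the Control plates (44, 10 and 8 cells), so that the value of CA-ERBB2 plate 2 rested on these wells.

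**Figure D4:**
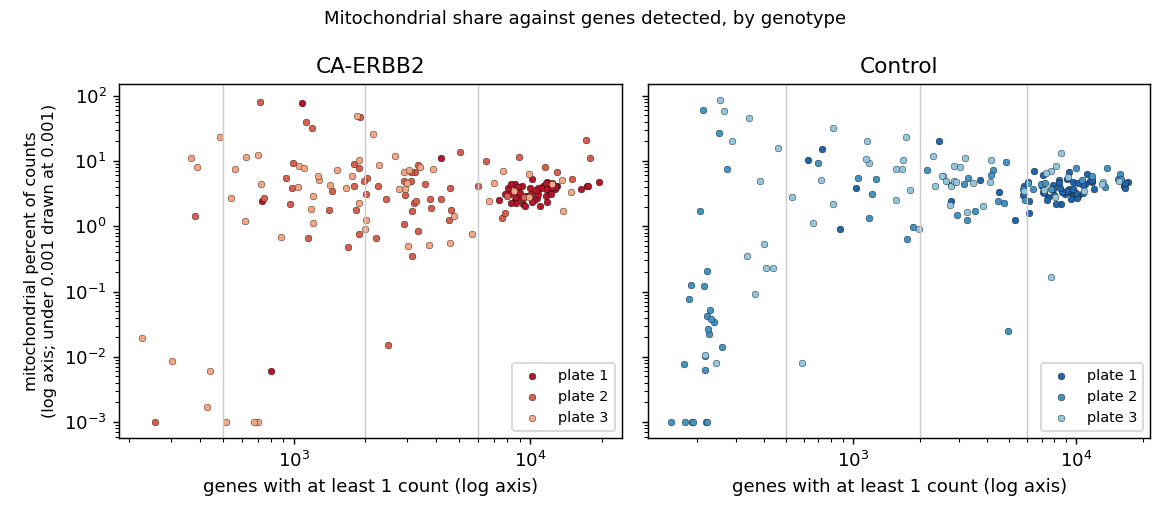
Mitochondrial percent of counts (vertical, log axis) against genes with at least 1 count (horizontal, log axis) for 177 CA-ERBB2 cells (left) and 177 Control cells (right), colored by plate, with grey lines at 500, 2000 and 6000 genes. At the right, past 6000 genes, the interquartile range over all plates is 3.02% to 4.73%, and shares under 0.1% are mostly at the left.

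Within plates, rank correlations of the share with genes detected were weak. In cells with at least 100000 counts, Spearman's rho was 0.38, 0.08 and 0.03 on the CA-ERBB2 plates (59, 58 and 58 cells) and 0.13, 0.25 and -0.09 on the Control plates (59, 36 and 49 cells), with a median of 0.11. With total counts, rho was -0.12, -0.11 and 0.06 in CA-ERBB2 and 0.32, -0.11 and -0.09 in Control. The share of the 7 highly counted genes alone had rho from 0.04 to 0.64 with genes detected, highest on Control plate 2, and the rRNA share from -0.04 to 0.28. These are descriptions, since cells of a plate share their preparation and the total is the denominator of the share.

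The protein-coding genes rose and fell together from cell to cell. Over the 21 pairs of the 7 highly counted genes, the median Spearman correlation of log2(CPM + 1) was 0.75, 0.61 and 0.62 on the CA-ERBB2 plates and 0.62, 0.63 and 0.57 on the Control plates. All 21 pairs were positive on all 6 plates. Over all 78 pairs of 13 genes the median was lower, 0.35 (plates 0.17 to 0.39), because this includes the 6 genes at near 0, whose own pairs had a median of 0.15. The highest pairs, by the median of 6 plates, were *mt-Nd4* with *mt-Cytb* at 0.76 and *mt-Nd1* with *mt-Nd2* at 0.76. The lowest was *mt-Co1* with *mt-Nd6* at 0.44. *mt-Nd5* and *mt-Nd6*, which overlap on opposite strands, were at 0.70 with a range from 0.60 to 0.89. The rRNA genes were closest to each other, at 0.84 (0.76 to 0.90), and each protein-coding gene correlated with them at 0.46 to 0.64. The tRNA share also followed the share of the 7 genes, with rho from 0.59 to 0.77. The shared denominator and the same cDNA amplification enter all of these values.

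**Figure D5:**
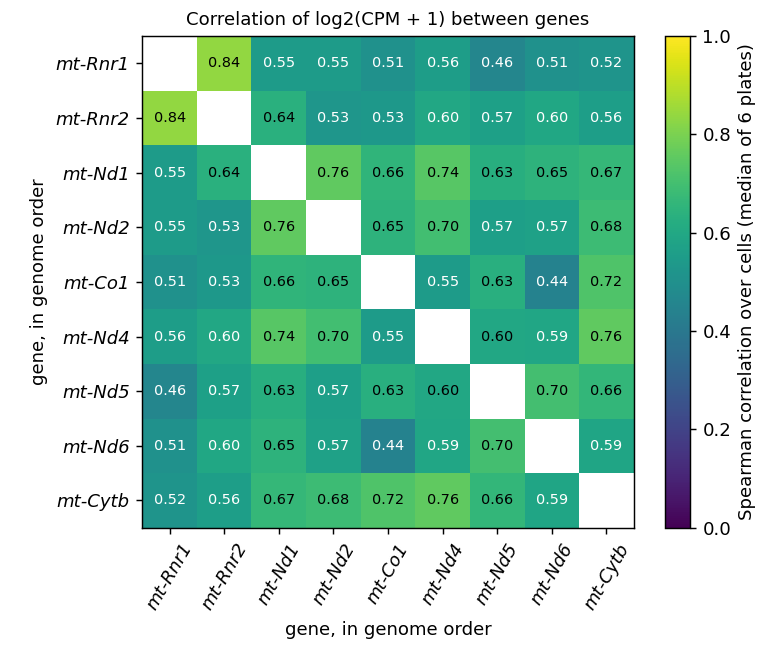
Spearman correlation over cells with at least 100000 counts, as the median of 6 plates, between the 2 rRNA and the 7 highly counted protein-coding genes in genome order. The pair of rRNAs stands out at 0.84, pairs of protein-coding genes lie between 0.44 and 0.76, and rRNA with protein-coding pairs between 0.46 and 0.64.

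The make-up of the protein-coding counts varied between plates. As a percent of the counts of the 7 genes, *mt-Cytb* took 33.3, 31.7 and 30.4 in CA-ERBB2 and 35.4, 36.4 and 37.0 in Control. The 3 CA-ERBB2 values were below the 3 Control values. *mt-Nd1* took 13.4, 21 and 20.7 in CA-ERBB2 and 11.7, 16.8 and 15.5 in Control. *mt-Nd4* took 13.6% to 17.0% over the 6 plates, *mt-Co1* 11.3% to 14.9%, *mt-Nd2* 8.71% to 11.2%, *mt-Nd5* 5.06% to 8.99% and *mt-Nd6* 2.93% to 4.66%. The complex I genes together took 52.5%, 56.0% and 58.3% in CA-ERBB2 and 50.1%, 50.8% and 48.1% in Control, so every CA-ERBB2 plate was above every Control plate. This sum leaves out *mt-Nd3* and *mt-Nd4l* and includes *mt-Nd4*, part of which is copied. Among all genes tested, 7.89% had plates that did not overlap between the genotypes on plain CPM, which is another measure. Percentages of a fixed sum depend on each other, and these were not tested. No difference between the genotypes is therefore read from them.

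Between cells the make-up varied less where many genes were detected. Each gene's log2 count was set against the mean log2 count of the 7 genes in the same cell, for 254 cells with at least 100000 counts, every gene detected and at least 1000 counts on the 7 genes. In the 150 of these cells with over 6000 genes, the SD of this value was between 0.29 for *mt-Cytb* and 0.45 for *mt-Nd2*. In the 76 cells with over 2000 and up to 6000 genes it was between 0.90 for *mt-Cytb* and 2.07 for *mt-Nd5*, and in the 27 cells with over 500 and up to 2000 genes between 1.39 for *mt-Nd4* and 2.84 for *mt-Nd5*. The mean SD of the 7 genes was 0.37, 1.39 and 2.05 in these bins, which pool plates. By plate it was 0.24, 0.40 and 0.26 in CA-ERBB2 and 0.31, 0.33 and 0.58 in Control in cells with over 6000 genes. In cells with over 2000 and up to 6000 genes plates 2 and 3 of CA-ERBB2 stood at 1.53 and 0.74, and Control stood at 0.85, 0.92 and 1.72 (7 to 23 cells per plate), higher on each of these plates than in the cells with more genes. CA-ERBB2 plate 1 had 1 such cell. *mt-Nd2* had a smaller part in cells with more genes on all 6 plates, with rho from -0.52 to -0.11. *mt-Co1* had a larger part on 5 of 6 plates, with rho from -0.06 to 0.36. Pooled over plates, the ratio of rRNA to protein-coding counts was also lower in cells with many genes. Its median log2 value was -0.61 in those with over 6000 genes and -0.16 and -0.13 in the next 2 bins. By genotype, it was -0.67, 0.13 and 0.26 in CA-ERBB2 and -0.53, -0.44 and -0.32 in Control, a smaller shift in Control, and the difference between the genotypes was not tested. Over 6000 genes the ratio was -0.75, -0.55 and -0.41 on the CA-ERBB2 plates and -0.48, -0.40 and -1.52 on the Control plates. Over 500 and up to 2000 genes it was -1.13, 0.48 and 0.39 on the CA-ERBB2 plates (3, 19 and 25 cells). On the Control plates it was -0.66, -0.15 and -0.76 (4, 7 and 16 cells). The plates numbered 1 thus went the other way, and the plates fill the bins unequally.

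Detection set the rRNA genes and the 7 highly counted protein-coding genes apart from the copied stretch. With each of 319 cells thinned to 100000 counts, *mt-Rnr2* was detected in 97.5% of cells, and *mt-Cytb*, *mt-Nd2* and *mt-Rnr1* in 91.5% each. *mt-Nd1* was at 91.2%, *mt-Nd4* at 89.7%, *mt-Co1* at 88.7%, *mt-Nd6* at 84.3% and *mt-Nd5* at 82.1%. The 6 genes of the copied stretch were detected in 0% to 11.3%, and *mt-Ty* in 66.8%. The plate median of members detected per cell was 12, 11 and 9.5 in CA-ERBB2 and 12, 11 and 11 in Control, a difference of -0.5 genes (two-sided exact permutation p = 0.9). Thinning left out 2 CA-ERBB2 and 33 Control cells. Unthinned, the medians were 17, 16 and 13 against 16, 11 and 14, and the sign of the difference turned.

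In the test of plate sums across all genes, no member was called. The edgeR quasi-likelihood test ran on 21416 genes, which 25 of the 37 members entered, 11 of them protein-coding, 2 rRNA and 12 tRNA. *mt-Atp8*, *mt-Nd4l* and 10 tRNA genes fell under the filter on low counts. Calls required an adjusted p below 0.05 by the Benjamini-Hochberg method and a log2 fold change beyond 1 up or down, which 1 gene (0.00467%) met in all. Of the members, 0 of 25 were called by edgeR and 0 by DESeq2, which gave 2 of them no adjusted p-value and called 1.09% of all genes. At an unadjusted p under 0.05 in edgeR there were 0 members, against 5.16% of all genes. On the scale of edgeR, with trimmed mean of M-values (TMM) factors, 0 of 25 members did not overlap between the plates of the genotypes, against 9.09% of all genes.

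Directions among the members depended on the scale. On the TMM scale, 22 of 25 fold changes were above 0 with a median log2 fold change of 0.61, against -0.02 over all genes tested. On plain CPM, 17 of 25 had the higher mean in CA-ERBB2, as did 8213 of the 21416 genes tested. Without wells A12 to D12, 19 were above 0 on the TMM scale with a median of 0.40. With plates left out in turn, the number above 0 on the TMM scale ran from 13, without CA-ERBB2 plate 2, to 25, without Control plate 3. No direction is therefore given for the set.

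Values by gene show the same. *mt-Rnr1* was at 3607, 12075 and 5798 CPM in CA-ERBB2 and at 3992, 4201 and 2934 CPM in Control. Its log2 fold change of 1.43 ± 0.66 (SE) had an edgeR adjusted p of 0.911, and it was the largest among the 9 longer genes outside the copied stretch. Without CA-ERBB2 plate 2 it was 0.77. CA-ERBB2 plates 2 and 3 were above every Control plate, and plate 1 lay among them. *mt-Rnr2* was at 12589, 27959.9 and 22912 CPM in CA-ERBB2 and at 14129, 17542 and 16255 CPM in Control, with a log2 fold change of 0.86 ± 0.66. *mt-Cytb* was at 9030.0, 9668 and 8601 CPM in CA-ERBB2 and at 8558, 8179 and 16397 CPM in Control. Control plate 3 was the highest for all 7 highly counted genes except *mt-Nd5*. The log2 fold change of *mt-Cytb* was 0.04 ± 0.60 on the TMM scale, while its mean CPM was lower in CA-ERBB2, at 9099 ± 537 against 11045 ± 4639 (SD, n = 3 plates each).

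Among the complex I genes, *mt-Nd1* was at 3639, 6408 and 5837 CPM in CA-ERBB2 and at 2832, 3786 and 6865 CPM in Control. *mt-Nd2* was at 2517, 3402 and 3176 CPM in CA-ERBB2 and at 2108, 2269.9 and 4436 CPM in Control. *mt-Nd4* was at 4386, 4452 and 4285 CPM in CA-ERBB2 and at 4114, 3291 and 6016 CPM in Control. All 3 overlapped, and the SD of *mt-Nd4* was 84.5 CPM over the CA-ERBB2 plates and 1398 CPM over the Control plates. *mt-Nd5* was at 2439, 1749 and 1909 CPM in CA-ERBB2 and at 2160.5, 1420.2 and 2242 CPM in Control. *mt-Nd6* was at 1263, 1069 and 1258 CPM in CA-ERBB2 and at 903, 659 and 1741 CPM in Control. The one complex IV gene of the set, *mt-Co1*, was at 3859, 3766 and 3187 CPM in CA-ERBB2 and at 3519.8, 2893 and 6625 CPM in Control. The 7 log2 fold changes were between 0.03 and 0.62 with SEs of 0.49 to 0.65, and their edgeR adjusted p-values were 0.946 or more.

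The 6 genes of the copied stretch varied between plates with no order by genotype. *mt-Co2* was at 0.0477, 0.107 and 0.107 CPM in CA-ERBB2 and at 0.0219, 0.0185 and 0.831 CPM in Control. *mt-Atp6* was at 0.159, 11.5 and 3.96 CPM in CA-ERBB2 and at 0.328, 8.14 and 2.10 CPM in Control. *mt-Co3* was at 2.39, 0.371 and 11.2 CPM in CA-ERBB2 and at 2.59, 0.111 and 9.82 CPM in Control. In *mt-Atp6* and *mt-Co3* the levels followed the plate number more than the genotype, with *mt-Atp6* highest on both plates 2 and *mt-Co3* highest on both plates 3. *mt-Nd3* was at 0.551, 13.9 and 0.0228 CPM in CA-ERBB2 and at 0.727, 2.58 and 0.0242 CPM in Control, highest on both plates 2 and lowest on both plates 3. A single cell held 69.1% of its counts on CA-ERBB2 plate 2. For *mt-Atp6* a single cell held 48.9% on CA-ERBB2 plate 2 and 93.4% on Control plate 2. For *mt-Co3* a single cell held 43.7% on CA-ERBB2 plate 3 and 48.5% on Control plate 3. *mt-Atp8* had 2 counts and *mt-Nd4l* 1 count in all. Among the copies, *Gm28437* was at 15.7, 53.0 and 25.7 CPM in CA-ERBB2 and at 19.5, 25 and 33.1 CPM in Control.

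Nuclear genes of the respiratory chain were set beside the members. Of 76 nuclear subunit genes, 75 were in the tables and tested, and 0 were called by edgeR or DESeq2. Of these, 66 log2 fold changes were above 0 on the TMM scale with a median of 0.67, against 10530 of all 21416 genes. On plain CPM, 57 of 75 had the higher mean in CA-ERBB2. At an unadjusted p under 0.05 in edgeR there was 1 of 75 genes, against 5.16% of all genes. This gene, *Atp5g1*, encodes the c subunit of ATP synthase and had a log2 fold change of 1.64 ± 0.66 and an edgeR adjusted p of 0.911. By complex, the median log2 fold change on the TMM scale was 0.59 for 37 genes of complex I, 0.52 for 4 of complex II, 0.76 for 9 of complex III, 0.91 for 11 of complex IV and 0.62 for 14 of complex V. On plain CPM the complex II genes summed to 725, 897 and 853 in CA-ERBB2 and to 671, 904 and 1037 in Control. The 3 highest were ATP synthase genes. *Atp5b*, its beta subunit, was at 1071, 761 and 923 CPM in CA-ERBB2 and at 662, 1312 and 1057 CPM in Control. *Atp5a1*, its alpha subunit, was at 1000.3, 819.7 and 734 CPM in CA-ERBB2 and at 817, 925 and 1058 CPM in Control. *Atp5g3*, for a c subunit, was at 669, 1126 and 1000.1 CPM in CA-ERBB2 and at 471, 909 and 758 CPM in Control. All 3 overlapped between the genotypes.

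The nuclear set took 1.54%, 2.63% and 2.58% of counts in CA-ERBB2 and 1.26%, 2.37% and 2.14% in Control. The ratio of the 7 mitochondrial genes to the nuclear set was 1.77, 1.16 and 1.10 in CA-ERBB2 and 1.92, 0.948 and 2.08 in Control. It was lowest on plates 2 and 3 of CA-ERBB2 and on plate 2 of Control. Across cells of a plate, the correlation of the 2 shares was 0.48 and 0.60 on the plates numbered 1 and between -0.09 and 0.16 on the other 4.

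Genes that replicate, transcribe and process mitochondrial DNA and RNA were also examined. All 30 were tested and 0 were called by edgeR or DESeq2, with 11 log2 fold changes above 0 and a median of -0.21 on the TMM scale, and 7 had the higher mean in CA-ERBB2 on plain CPM. *Slirp*, which stabilizes mitochondrial mRNAs, was at 118, 283 and 259 CPM in CA-ERBB2 and at 116, 137 and 210.0 CPM in Control. *Hsd17b10*, a subunit of mitochondrial RNase P, was at 153, 182 and 224 CPM in CA-ERBB2 and at 131, 179 and 110.4 CPM in Control. *Rexo2*, an oligoribonuclease, was at 106, 124 and 103 CPM in CA-ERBB2 and at 85.5, 88.1 and 71.4 CPM in Control, and did not overlap on this scale but did on the TMM scale. On plain CPM, 2 of the 30 genes did not overlap, against 7.89% of all genes tested. The other was *Polg*, lower in CA-ERBB2, at 19.2, 3.29 and 7.21 CPM against 22.4, 20.8 and 25.6 CPM in Control. At an unadjusted edgeR p under 0.05 there was 1 of 30 genes, against 5.16% of all genes. This gene, *Lrpprc*, the partner of *Slirp*, had a log2 fold change of 2.49 ± 0.82 and an adjusted p of 0.911. It was at 60.8, 287 and 36.6 CPM in CA-ERBB2 and at 37.9, 22.6 and 32.4 CPM in Control, so that CA-ERBB2 plate 2 stood apart.

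Cells of CA-ERBB2 plates in which *Spp1*, *Timp1*, *Mmp9* and *Dmp1* were each at 100 CPM or more had median mitochondrial shares of 2.36%, 2.73% and 3.71% (3, 14 and 19 cells with at least 100000 counts), against 3.65%, 3.98% and 5.03% in the other cells of the same plates (56, 44 and 39 cells). In these cells *Spp1* took a median of 15.9% to 18.9% of the counts, which are part of the same total.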

How the data were processed

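SMART-Seq Single PLUS libraries, which carry no molecular identifiers, were sequenced from 354 sorted cells. Their cDNA was primed with the SMART-Seq CDS Primer II A. How well it captures mRNA, rRNA and tRNA was not tested. Class shares, ratios of classes and levels per length are therefore those of counts, not of RNA in the cell. The authors demultiplexed with bcl2fastq 2.19.1, trimmed with fastp, mapped with STAR 2.7.6a to GRCm38 with Gencode M25 and counted reads on exons by strand with featureCounts of Subread 2.0.1. The deposited values are raw counts per gene and cell. Depth was 108357282 to 188636940 counts per plate, so counting error is small beside the spread between plates for the 9 longer genes outside the copied stretch but not for members with few counts.

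Doublets were limited by the scatter gates of the sort, and no caller was run. No cell was left out unless stated. Shares are percent of summed plate counts, compared with two-sided exact permutation tests in scipy 1.17.1. Plate sums were tested with edgeR 4.0.16 (TMM, filterByExpr) in R 4.3.3, with DESeq2 1.42.0 and limma 3.58.1 as alternatives. TMM factors were 0.688 to 1.325. In data drawn from these plates with 200 genes changed, 20% of 8-fold and 88% of 64-fold changes were recovered. Of 52 calls in the 8-fold set 40 were changed genes, and of 185 in the 64-fold set 176. With no gene changed, 1 was called. The changed genes were drawn from all genes above a floor on counts, so these rates are not those of the members in particular. Coordinates and sequences come from Gencode M21 on the same build, and copies were sought among its transcripts with Biopython 1.88. All 13 protein-coding and 2 rRNA genes, the 6 highest tRNA genes and the 3 highest genes of each nuclear list were named, with those called. Others named, such as *Atp5g1*, *Lrpprc* and *Polg*, were chosen after their values were seen. Members and lists were chosen with earlier results of these data known. Alternatives are described at the end.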

Additional observations from a re-analysis of the deposited data

How the results depend on the processing

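The authors describe 3 independent sorts, with littermates as Controls, and do not tie the sorts to plate numbers. Whether plates with 1 number shared a litter or a sort is thus not given in the sources used here. The correlation of the deviations of same-numbered plates was 0.25, 0.06 and 0.04. The plates numbered 1 each correlated best with one another, and so did the plates numbered 2. CA-ERBB2 plate 3 correlated at 0.0393 with Control plate 3 and at 0.0512 with Control plate 2. Control plate 3 correlated at 0.0396 with CA-ERBB2 plate 2. These values do not settle whether same-numbered plates are pairs. The main tests are unpaired because no pairing is given, and the paired form follows. With the plate number as a replicate block, the differences were 0.695 (total), -0.17 (protein-coding), 0.863 (rRNA) and 0.00189 (tRNA) percentage points and -0.5 members detected (exact sign-flip permutation p = 0.75, 1, 0.5, 0.75 and 1, smallest possible 0.25), and 0 members and 1 gene in all were called. No member and no gene of either nuclear list was called under any alternative. The genes called in all numbered 1, against 233 with DESeq2, 285 without the filter on low counts, 0 with every cell weighted equally, and 0 to 2 with a plate left out. With plates left out in turn, differences ran from 0.0132 to 1.38 (total), -0.562 to 0.529 (protein-coding), 0.277 to 1.47 (rRNA) and 0.0009 to 0.00384 (tRNA) percentage points and from -1.08 to 0.167 members detected. Members detected differed by 1.67 without thinning and by 0.333 thinned to 20000 counts. As a median over cells the tRNA difference was -6.64e-05 and the rRNA difference 0.345 percentage points. The median correlation of protein-coding genes was 0.247 by Pearson's method and 0.617 over the 7 highly counted genes, a setting chosen after seeing the data.

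Signs of log2 fold changes turned in 9 of 19 named members tested (25 of 266 values). Without wells A12 to D12 they were -0.075 for *mt-Co1*, -0.051 for *mt-Cytb* and -0.023 for *mt-Ty*. With the replicate block they were 0.57 for *mt-Co2* and 0.25 for *mt-Te*, and with every cell weighted equally 0.16 for *mt-Te*. With plates left out in turn they ran from -0.21 to 0.65 for *mt-Co1*, -1.99 to 2.67 for *mt-Co2*, -0.14 to 2.51 for *mt-Atp6*, -1.84 to 2.60 for *mt-Co3*, -2.12 to 4.36 for *mt-Nd3*, -0.20 to 0.62 for *mt-Cytb*, -0.095 to 0.52 for *mt-Ty*, -0.37 to 0.87 for *mt-Te* and -0.20 to 1.28 for *mt-Ti*. Those of *mt-Rnr1* kept their sign, from 0.77 to 1.85. The cause was not tested.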
